A study of Mus musculus with 15 samples.

Results

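Eosinophils carry cytotoxic proteins in large granules, and the genes for these proteins are switched on while the cell is still a bone marrow progenitor. Described here are 7 such genes in mouse myeloid progenitors. Ear1, Ear2, Ear3, Ear6 and Ear7 encode eosinophil-associated ribonucleases of the RNase A family. Prg2 encodes major basic protein, the core of the granule, and Epx encodes eosinophil peroxidase. All 7 were among the 23337 gene symbols measured, and all 7 were among the 15181 genes that passed the filter on low counts. The 5 Ear genes were chosen by their measured rise from CMP to GMP, so the levels in GMP and CMP are given as a description with no test. Of 11 gene symbols beginning Ear, 6 were not chosen (Ear4, Ear5, Ear10, Ear11, Ear12 and Ear14).

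RNA was sequenced from sorted, untreated bone marrow progenitors of Trappc1KO (KO) and Trappc1WT (WT) mice. The Trappc1 protein belongs to the core of the TRAPP tethering complexes, which act on vesicle traffic from the endoplasmic reticulum to the Golgi. Granulocyte-monocyte progenitors (GMP) were negative for lineage markers and Sca1, positive for CD117 and CD34, and high for CD16/32. Common myeloid progenitors (CMP) came from the same gate with low CD16/32. The groups were KO GMP (n = 3, numbered 1, 3 and 4), WT GMP (n = 4), KO CMP (n = 4) and WT CMP (n = 4). The sources used here do not give strain, age, sex or what drives the deletion of Trappc1. Whether each library is a separate animal is not stated, so the spread that p-values rest on, that between libraries, may be technical.

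Levels are CPM, a gene's count relative to its library's total after scaling between libraries, from totals worth about 15.32 M to 30.07 M fragments. Trappc1 measured 6.089 to 25.2 CPM in KO GMP and 30.94 to 41.33 CPM in WT GMP. It measured 3.835 to 13.41 CPM in KO CMP and 18.42 to 26.22 CPM in WT CMP. The KO libraries were thus below the WT libraries of the same cell type, but not at 0. By number, KO GMP was 14.73% of WT GMP in number 1, 78.03% in number 3 and 75.62% in number 4. KO CMP was 30.17% and 14.63% of WT CMP in numbers 1 and 2, and 62.45% and 53.27% in numbers 3 and 4, so the loss of Trappc1 RNA was smaller in numbers 3 and 4. Some libraries stood apart. Xist, the non-coding RNA of the inactive X chromosome, measured 109.5, 203.8 and 123.2 CPM in KO CMP 1, KO CMP 2 and KO GMP 1, and at most 2.167 CPM in the other 12 libraries. Ddx3y, a Y-linked gene, measured 57.53 to 84.99 CPM in KO GMP and 72.42 to 85.77 CPM in WT GMP. In CMP it measured 62.48 to 83.44 CPM in KO and 63.72 to 100.7 CPM in WT. The libraries with high Xist thus also held Y-linked RNA. WT libraries numbered 1 and 2 also parted from those numbered 3 and 4, and the comparisons of KO with WT are therefore given for all libraries and within each number set. The labels do not link these numbers to a batch. Fcgr3, which encodes one of the CD16/32 receptors of the gate, had a median of 294.7 CPM in KO GMP, 288.0 in WT GMP, 23.48 in KO CMP and 69.38 in WT CMP, where numbers 1 and 2 (99.48 and 115.4 CPM) stood above 3 and 4 (36.64 and 39.27 CPM).

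In mice the Ear genes form a family of near copies that arose by repeated duplication, and their products are the counterparts of human eosinophil cationic protein and eosinophil-derived neurotoxin. Eosinophil commitment is known to depend on GATA1 together with C/EBP factors and PU.1, and it proceeds from progenitors that carry the interleukin-5 receptor. Upstream sequences are shown because the 5 Ear genes moved together across libraries. RefSeq windows of 250 bases before the start site (GRCm38.p6) were matched for 4 of the 7 members. They lay at chr14:43819640-43819889 (minus strand) for Ear1, chr14:44102404-44102653 (plus strand) for Ear2, chr14:51853518-51853767 (plus strand) for Ear6 and chr11:87875537-87875786 (minus strand) for Epx. Capitals mark TTGCNNAA (a C/EBP-type motif), CCAAT (the CCAAT box) and TATAA (the TATA box). Each is read 5′ to 3′ toward the gene and ends at the RefSeq start.
Ear1: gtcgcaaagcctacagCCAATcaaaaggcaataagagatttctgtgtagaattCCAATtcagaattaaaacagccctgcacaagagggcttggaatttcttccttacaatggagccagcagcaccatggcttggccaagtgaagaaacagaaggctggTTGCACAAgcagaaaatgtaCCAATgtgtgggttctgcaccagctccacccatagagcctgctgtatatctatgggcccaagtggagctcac
Ear2: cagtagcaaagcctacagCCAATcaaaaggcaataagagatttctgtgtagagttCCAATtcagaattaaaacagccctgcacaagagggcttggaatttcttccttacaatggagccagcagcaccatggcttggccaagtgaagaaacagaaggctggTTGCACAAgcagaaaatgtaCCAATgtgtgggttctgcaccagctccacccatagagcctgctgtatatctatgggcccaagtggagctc
Ear6: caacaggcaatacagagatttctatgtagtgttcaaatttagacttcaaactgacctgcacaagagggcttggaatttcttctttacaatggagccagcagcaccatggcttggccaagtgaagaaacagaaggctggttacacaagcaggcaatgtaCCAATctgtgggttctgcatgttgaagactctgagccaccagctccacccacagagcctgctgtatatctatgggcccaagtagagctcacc
Epx: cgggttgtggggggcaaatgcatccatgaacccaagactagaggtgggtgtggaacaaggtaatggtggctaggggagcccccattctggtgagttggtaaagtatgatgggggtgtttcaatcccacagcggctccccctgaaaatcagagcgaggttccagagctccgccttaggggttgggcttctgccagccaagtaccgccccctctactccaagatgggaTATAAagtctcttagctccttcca
The Ear1 and Ear2 windows were 97.62% identical in a global alignment, and Ear6 was 78.23% identical to Ear1 and 77.66% to Ear2. Epx, on another chromosome, was 48.66% to 50.51% identical to the Ear windows. By the same alignment the window of Prg3, a gene that is not a member, was 50.51% identical to Ear1 and 47.99% to Epx. Values of this size thus also arose between other genes of different families.

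Motifs were searched on both strands. TTGCNNAA was found once in Ear1, 92 to 85 bases before the start, and once in Ear2, 90 to 83 bases before it, both as TTGCACAA. It was in 9.57% of 32841 RefSeq windows of this length, and it was found in neither the Ear6 nor the Epx window. CCAAT was found 3 times in Ear1, 3 times in Ear2 and once in Ear6, and it was in 33.9% of all windows. TATAA lay 24 to 20 bases before the start of Epx and was in 22.8% of all windows. GATAA, a motif of GATA factors, was in 22.6% of all windows. The PU.1-type motif GAGGAA was in 23.3% of them. Neither of these was found in the 4 windows. No match overlapped another. A match is a description of letters and not a bound site.

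Reads may be shared within the family, and the sources used here do not give the counting rule. Ear1 and Ear2 transcripts (GENCODE M21) were 96.11% identical, and 23.8% of the 50-base windows of Ear1 also occurred in Ear2, but none of its 100-base windows did. Of the Ear6 transcript, 1.355% of 50-base windows occurred in Ear1. The longest run that Ear2 shared with Ear10, which was not chosen, was 185 bases. Ear3 and Ear7 had no entry in GENCODE M21, so their sharing was not assessed. Of the summed counts of the 5 Ear genes in GMP libraries, they took a median of 22.23% and 30.84%. Levels of single Ear genes, and differences between them, are thus uncertain to an extent that these figures do not bound. On GRCm38, Ear1 spans chr14:43818765-43875517 (minus strand), Ear2 chr14:44102654-44103534 (plus strand) and Ear6 chr14:51853699-51854643 (plus strand) in GENCODE M21. The GENCODE starts of Ear1 and Ear6 lie upstream of the RefSeq starts, so the Ear1 window is inside this span and the Ear6 window runs into it. Prg2 spans chr2:84980461-84983632 (plus strand) and Epx chr11:87864000-87875536 (minus strand).

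The Ear genes were high in GMP and near 0 in CMP. Ear1 measured 7.785, 187.1 and 189.1 CPM in KO GMP 1, 3 and 4, and 35.84, 33.65, 303.6 and 461.3 CPM in WT GMP 1 to 4. It measured 0, 0.6578, 0.9226 and 0.9812 CPM in KO CMP 1 to 4, and 2.595, 3.237, 1.224 and 0.5083 CPM in WT CMP 1 to 4. Every GMP library was above every CMP library, and in both genotypes GMP numbers 3 and 4 were far above the lower numbers. A count of 0 in KO CMP 1 allows up to 0.163 CPM, the worth of 3 fragments there.

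Ear7 measured 12, 175.8 and 172.3 CPM in KO GMP and 38.25, 44.06, 253.4 and 363.3 CPM in WT GMP. It measured 0.04076, 0.3475, 0.5766 and 0.7068 CPM in KO CMP, against 3.648, 4.796, 0.7693 and 0.7117 CPM in WT CMP. The KO CMP and WT CMP libraries did not overlap for Ear7, although the highest KO value lay just under the lowest WT value. Ear3 measured 6.376, 124.8 and 121.7 CPM in KO GMP and 32.02, 30.57, 197.6 and 289.7 CPM in WT GMP. In CMP it measured 0.01359, 1.105, 0.4822 and 0.8565 CPM in KO and 2.522, 3.106, 0.9704 and 0.9828 CPM in WT, and KO CMP 2 lay within the WT range.

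Ear6 measured 2.046, 47.0 and 42.72 CPM in KO GMP and 8.324, 8.742, 57.99 and 101.4 CPM in WT GMP. In CMP it measured 0, 0.1117, 0.08387 and 0.2827 CPM in KO, and 1.151, 1.285, 0.1049 and 0.113 CPM in WT. The WT CMP libraries split by number, with 1 and 2 high and 3 and 4 within the KO range. Ear2 measured 1.397, 35.3 and 33.65 CPM in KO GMP and 9.432, 7.738, 47.14 and 87.36 CPM in WT GMP. In CMP it measured 0.2174, 0.1738, 0.1887 and 0.1247 CPM in KO and 0.6365, 0.9402, 0.1574 and 0.2485 CPM in WT. The CMP values of Ear2 and Ear6 outside WT numbers 1 and 2 rest on 8.5 fragments or fewer per library, so differences among those libraries were not detectable at this depth.

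The granule proteins had the same outline at higher levels. Prg2 measured 366.2, 2556 and 2562 CPM in KO GMP and 1185, 1141, 3878 and 5065 CPM in WT GMP. In CMP it measured 4.348, 25.07, 11.28 and 20.9 CPM in KO and 278.3, 232.8, 22.04 and 25.79 CPM in WT. The highest CMP libraries were thus WT CMP 1 and 2, and the lowest GMP library was KO GMP 1. Epx measured 189.8, 901.9 and 860.1 CPM in KO GMP and 344.4, 367.1, 1263 and 1523 CPM in WT GMP. In CMP it measured 0.6794, 6.466, 4.005 and 6.212 CPM in KO and 63.64, 67.84, 7.597 and 9.613 CPM in WT. No KO CMP library reached the WT CMP range for Epx, whereas KO CMP 2 exceeded WT CMP 3 for Prg2.

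**Figure D1:**
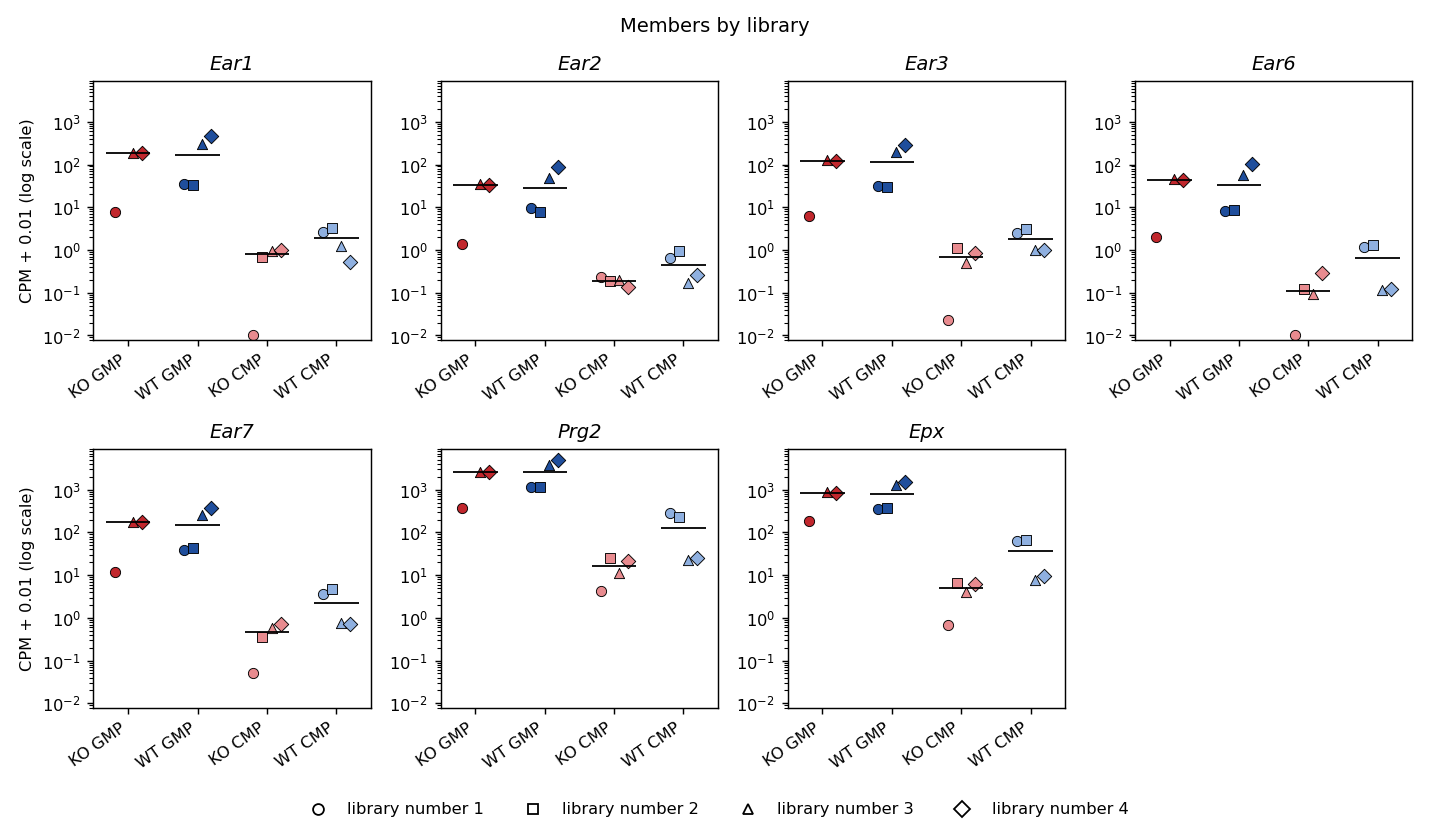
CPM + 0.01 on a log axis for each of the 7 genes, with 1 point per library, the marker shape giving the library number and the line the group median. Every GMP library lies above every CMP library for each gene, and KO CMP 1 is the lowest library for every gene except Ear2, with Ear1 and Ear6 at 0 there.

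Per kilobase of transcript (GENCODE M21, 5 members with an entry), Prg2 was the highest of the members in every group. It averaged 2181 ± 1511 CPM per kb in KO GMP, 3362 ± 2352 in WT GMP, 18.38 ± 11.17 in KO CMP and 166.7 ± 161.1 in WT CMP (SD, n = 3 for KO GMP and 4 for the others). Epx followed with 241.9 ± 148.6 in KO GMP, 325.1 ± 226.1 in WT GMP, 1.614 ± 0.9964 in KO CMP and 13.82 ± 12.29 in WT CMP. Ear1 averaged 179.5 ± 146.0 in KO GMP, 292.6 ± 295.7 in WT GMP, 0.8982 ± 0.6305 in KO CMP and 2.652 ± 1.749 in WT CMP. The ranges of Epx and Ear1 overlapped in GMP, but the libraries are shared, and within a library Epx was above Ear1 in 6 of 7 GMP libraries and in 8 of 8 CMP libraries. Ear6 followed at 42.9 ± 34.8 in KO GMP and 61.87 ± 62.75 in WT GMP, and Ear2 at 32.61 ± 26.59 in KO GMP and 52.74 ± 52.36 in WT GMP, and Ear6 was above Ear2 in 6 of 7 GMP libraries but in 3 of 8 CMP libraries. In total the 7 genes took 0.06011% to 0.3751% of a KO GMP library and 0.1555% to 0.7336% of a WT GMP library. They took at most 0.003766% of a KO CMP library and at most 0.03696% of a WT CMP library.

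The log2 fold change of GMP over CMP, which chose the Ear genes, was fitted with edgeR and is described only. In KO it was 7.59 for Ear1, 7.07 for Ear2, 7.07 for Ear3, 7.85 for Ear6 and 8.09 for Ear7. In WT it was 6.80 for Ear1, 6.28 for Ear2, 6.19 for Ear3, 6.08 for Ear6 and 6.15 for Ear7. It was 6.89 in KO and 4.33 in WT for Prg2, and 7.22 in KO and 4.56 in WT for Epx, against a median over all genes of -0.02 in each genotype. Ranked among 15181 genes, the 7 members stood between 4 and 20 in KO and between 6 and 26 in WT. Just inside the choice in WT was Ear6, and just outside it Ear12 at 5.12 (4.87 in KO). Ear12 reached 0.5369 CPM in KO GMP and 1.559 CPM in WT GMP at most. Ear11 was at 0 in all 4 KO CMP libraries and at 0 to 14.75 fragments in the KO GMP libraries, and its WT rise was 3.07. Its fitted KO rise of 7.94, above those of Ear1, Ear2, Ear3 and Ear6, is set against 0 fragments and depends on the prior count. Ear4 and Ear14 were at 0 units in all libraries, Ear5 had 5 units and Ear10 had 81 units in total, where about 4 units are worth 1 fragment.

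The make-up of the Ear signal varied far less between GMP libraries than its level. Of the units of the 5 Ear genes in a GMP library, Ear1 took 26.3% to 35.4% (median 32.83%), Ear7 27.88% to 40.54% (30.84%) and Ear3 21.53% to 25.85% (22.23%). Ear6 took 6.721% to 8.246% (median 7.007%) and Ear2 4.72% to 7.615% (6.194%). These ranges hold both KO and WT libraries, and the highest Ear7 share and the lowest Ear1, Ear2 and Ear3 shares were all in KO GMP 1. The shares are not scaled for transcript length.

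The Ear genes and Prg2 did not keep a fixed ratio. Summed over the 5 Ear genes, there were 80.84, 223.0 and 218.4 Ear CPM per 1000 CPM of Prg2 in KO GMP 1, 3 and 4, and 104.5, 109.4, 221.7 and 257.2 in WT GMP 1 to 4. In CMP there were 62.5, 95.54, 199.8 and 141.3 in KO and 37.92, 57.41, 146.4 and 99.43 in WT. In all 4 groups the libraries numbered 3 and 4 were above those numbered 1 and 2, and in GMP the KO and WT ranges overlapped. Epx per 1000 CPM of Prg2 varied less, at 518.3, 352.9 and 335.7 in KO GMP, 290.6 to 325.6 in WT GMP, 156.3 to 355.0 in KO CMP and 228.7 to 372.8 in WT CMP. KO GMP 1 had the highest Epx ratio of all libraries and the lowest Ear ratio of the GMP libraries. Prg3, which encodes a second major basic protein, was not a member. Per 1000 CPM of Prg2 it stood at 47.08 to 55.8 in KO GMP and 44.55 to 48.51 in WT GMP. In CMP it stood at 25 to 69.24 in KO and 35.63 to 62.2 in WT, a wider spread than in GMP. In KO CMP 1 to 4 this ratio rests on about 2, 17.75, 15.5 and 43.5 Prg3 fragments. The Ear ratio in KO CMP 1 rests on 20 units of the 5 Ear genes, with about 4 units to 1 fragment. Counting error thus limits the ratios in these libraries.

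**Figure D2:**
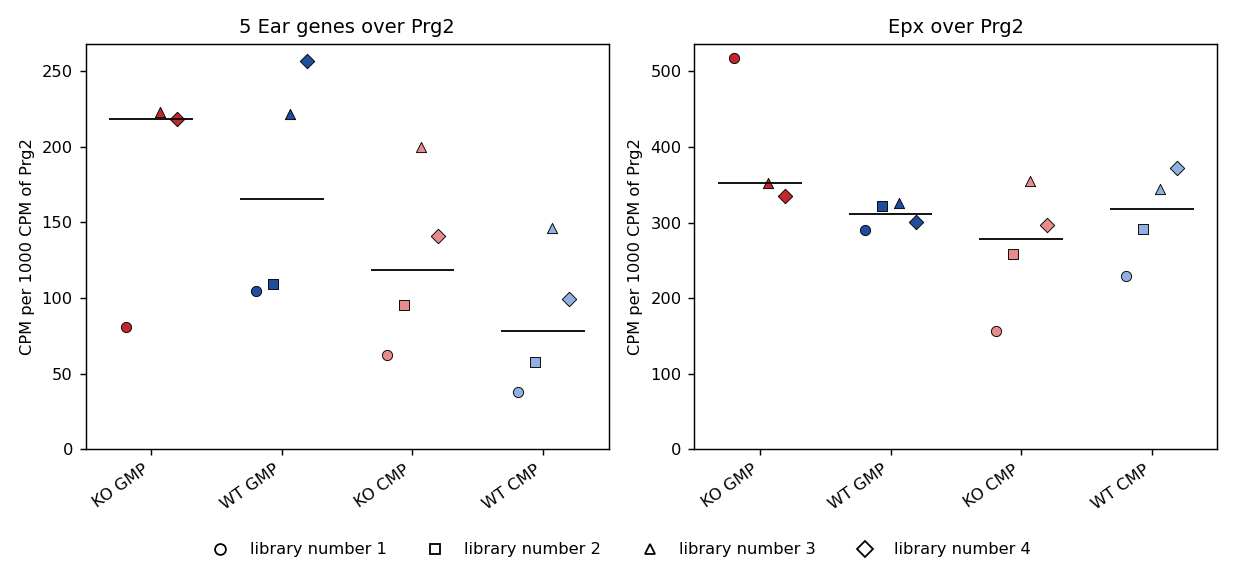
Summed CPM of the 5 Ear genes (left) and CPM of Epx (right) per 1000 CPM of Prg2 in each library, with shapes for library numbers and lines for group medians. The Ear ratio is higher in numbers 3 and 4 than in 1 and 2 in each group, and the Epx ratio is highest in KO GMP 1 at 518.3.

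KO was compared with WT with edgeR's quasi-likelihood test, fitted to all 15181 genes and adjusted by Benjamini-Hochberg, with a gene called at an adjusted p under 0.05. In GMP, with all libraries, all 7 members were lower in KO by point estimate, with log2 fold changes between -0.71 (Ear3) and -0.43 (Epx) and a median of -0.62, against 0.01 over all genes. None of the 7 was called (adjusted p = 1 for each), and 0% of all genes were called. At an unadjusted p under 0.05, 0 members were lower, against 2% of all genes, and DESeq2 called 0 members, against 0.396% of all genes. Prg2 averaged 1828 ± 1266 CPM in KO GMP (n = 3) and 2817 ± 1971 CPM in WT GMP (n = 4, SD), and the spread within each group exceeded the difference. In this fit, which does not use the numbers, the sign of some members turned when 1 library was left out. Without WT GMP 4 the log2 fold changes of Ear1, Ear2, Ear6 and Ear7 were 0.04, 0.13, 0.29 and 0.10, and without KO GMP 1 those of Ear6 and Epx were 0.02 and 0.01, while Ear3 and Prg2 were at most -0.04 and -0.14 under any alternative. In bulk samples, fewer cells of a type and less RNA per cell cannot be told apart.

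Paired by number, which is an assumed pairing, KO GMP was below WT GMP in 3 of 3 pairs for each of the 7 members. KO was 14.82% (Ear2) to 55.11% (Epx) of WT in number 1, 61.62% (Ear1) to 81.05% (Ear6) in number 3 and 38.52% (Ear2) to 56.49% (Epx) in number 4. Over all libraries no member had every KO GMP library below every WT GMP library, which held for 3.7% of all genes. Within each number set all 7 did, against 8.94% of all genes. The members are near copies or share the step between cell types, so these are not 7 separate observations.

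In numbers 3 and 4 alone, the GMP log2 fold changes were -1.02 ± 0.36 for Ear1, -0.96 ± 0.24 for Ear2, -0.98 ± 0.39 for Ear3, -0.83 ± 0.28 for Ear6 and -0.83 ± 0.22 for Ear7 (SE). They were -0.81 ± 0.51 for Prg2 and -0.66 ± 0.50 for Epx. None of the 7 passed edgeR's test (lowest adjusted p = 0.364, for Ear2), and 0.0132% of all genes did. The 5 Ear genes had an unadjusted p under 0.05, against 3.12% of all genes that were lower at that threshold, and DESeq2 called 0 members, against 0.295% of all genes. The KO libraries here had Xist at 0.2316 and 0.3047 CPM.

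In numbers 1 and 2, KO GMP is a single library, so the calls rest on a spread taken from the other groups, which the fit assumes it to share. It is also the KO GMP library with Xist at 123.2 CPM. Ear2 fell by 2.62 ± 0.37 (adjusted p = 0.000368), Ear3 by 2.30 ± 0.55 (adjusted p = 0.0117) and Ear1 by 2.16 ± 0.51 (adjusted p = 0.0105), in edgeR's test on the log2 scale. Ear6 fell by 2.06 ± 0.42 (adjusted p = 0.00444) and Ear7 by 1.78 ± 0.30 (adjusted p = 0.00143). Prg2 at -1.67 ± 0.67 (adjusted p = 0.102) and Epx at -0.91 ± 0.63 (adjusted p = 0.349) did not pass. The 5 calls, all ribonucleases, compare with 9% of all genes called lower and 11% called higher. DESeq2 called 3 of these, Ear2, Ear6 and Ear7, against 11.2% of the genes it tested called lower. Without KO CMP 1, which enters this contrast through the shared spread alone, Prg2 and Epx passed too (edgeR adjusted p = 0.00146 and 0.00772), and likewise without KO CMP 2 (adjusted p = 0.00141 and 0.00761). That the ribonucleases differ from Prg2 and Epx in this respect was not tested.

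In CMP the point estimates were larger. With all libraries the 7 log2 fold changes lay between -3.18 (Prg2) and -1.48 (Ear2), with a median of -2.30 against 0.01 over all genes. None passed edgeR's test, and 0% of all genes did. Epx was at -3.09 ± 0.87 (adjusted p = 0.212), Prg2 at -3.18 ± 0.92 (adjusted p = 0.224) and Ear7 at -2.48 ± 1.06 (adjusted p = 0.383), and these 3 had an unadjusted p under 0.05, against 6.92% of all genes that were lower at that threshold. DESeq2 called 2 members, Prg2 (adjusted p = 0.00632) and Epx (adjusted p = 0.00525), against 3.02% of the genes it tested. Prg2 averaged 15.4 ± 9.36 CPM in KO CMP and 139.7 ± 135.0 CPM in WT CMP, and Epx 4.34 ± 2.68 CPM in KO CMP and 37.17 ± 33.04 CPM in WT CMP (SD, n = 4 each). Every KO CMP library was below every WT CMP library for 2 members, Ear7 and Epx, which held for 3.6% of all genes. Within each number set it held for 4 members, Ear3, Ear7, Prg2 and Epx, against 8.12% of all genes.

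In CMP numbers 1 and 2 all 7 members fell, against 10.2% of all genes called lower and 8.23% called higher. Ear7 fell by 4.39 ± 0.40 on the log2 scale (edgeR adjusted p = 9.32e-06), Ear6 by 4.35 ± 0.65 (adjusted p = 0.000473) and Epx by 4.19 ± 0.59 (adjusted p = 0.000324). Prg2 fell by 4.12 ± 0.58 (adjusted p = 0.000313) and Ear1 by 3.09 ± 0.61 (adjusted p = 0.00345). Ear3 fell by 2.28 ± 0.59 (adjusted p = 0.0175) and Ear2 by 2.01 ± 0.44 (adjusted p = 0.00645). The sizes depend on which KO library is kept, since KO CMP 1 was below KO CMP 2 for every member but Ear2. Without KO CMP 1 the log2 fold changes were -3.35 for Prg2, -3.35 for Epx, -3.60 for Ear7, -3.43 for Ear6, -2.15 for Ear1 and -1.35 for Ear3. Without KO CMP 2 they were -5.88 for Prg2, -6.59 for Epx, -6.65 for Ear7 and -7.55 for Ear3. The single KO library then left, KO CMP 1, was at 0 for Ear1 and Ear6. It held about 0.25 fragments of Ear3 and 0.75 of Ear7, below the 3 fragments worth 0.163 CPM there, so the sizes for both are limited by counting error. Either way 1 KO CMP library was left in this set, so only sizes are given. With no library left out, DESeq2 called 6 of the 7 members, all but Ear3, against 10.7% of all genes called lower. Without WT CMP 2 the calls of Ear2 and Ear3 were lost, with adjusted p = 0.0613 and 0.0868, and 5 members remained called.

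In fragments, numbers 1 and 2 together held about 585 of Prg2 in KO CMP and 10573 in WT CMP, which after scaling is 16.81 times more in WT than in KO (95% interval 15.47 to 18.3). Epx had about 143 in KO and 2725 in WT, 17.73 times more in WT (14.98 to 21.12), and Ear7 8 in KO and 175 in WT, 20.35 times more in WT (10.1 to 47.88). Ear6 rests on about 2 fragments in KO and 50 in WT, 23.26 times more in WT (6.111 to 197.3). These intervals cover counting error only, and the pairs joined in them differ widely. KO CMP was 1.563% of WT CMP in number 1 and 10.77% in number 2 for Prg2, and 1.068% and 9.531% for Epx.

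In numbers 3 and 4 the CMP groups were close. The log2 fold changes ran from -0.74 ± 0.53 (Epx) to 0.82 ± 0.70 (Ear6), with a median of -0.37 against -0.01 over all genes. Prg2 was at -0.57 ± 0.52, Ear3 at -0.51 ± 0.60, Ear2 at -0.37 ± 0.52, Ear7 at -0.20 ± 0.36 and Ear1 at 0.09 ± 0.54. No member passed edgeR's test (lowest adjusted p = 0.608), against 0.00659% of all genes. No member had an unadjusted p under 0.05, against 5.21% of all genes that were lower, and DESeq2 called 0 members, against 0.909% of all genes. Ratios of fragments of WT over KO ran from 0.6376 (Ear6) and 0.9401 (Ear1) to 1.423 (Prg2) and 1.62 (Epx). By pair, Prg2 in KO CMP was 51.18% of WT CMP in number 3 and 81.03% in number 4.

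The difference of the KO effect between the number sets was tested in the same fit. In CMP the effect in numbers 1 and 2 was lower than that in 3 and 4 for all 7 by point estimate, and 5 passed edgeR's test against 4.59% of all genes. These were Ear6 at -5.17 ± 1.01 (adjusted p = 0.00724), Ear7 at -4.19 ± 0.57 (adjusted p = 0.000636), Prg2 at -3.55 ± 0.75 (adjusted p = 0.0115), Epx at -3.44 ± 0.77 (adjusted p = 0.0161) and Ear1 at -3.19 ± 0.83 (adjusted p = 0.0366). In GMP only Ear2 passed, at -1.65 ± 0.43 (adjusted p = 0.0280), against 4.36% of all genes called lower. DESeq2 called 4 in CMP, without Ear1 (adjusted p = 0.242), against 5.55% of all genes called lower, and Ear2 alone in GMP, against 6.22%. The Trappc1 level in KO also differed between the number sets, as given above, and its part in these differences was not tested. Leaving out single libraries took the CMP count of members to between 2 and 6, lowest without KO CMP 4, and 3 without WT CMP 2 or WT CMP 3. Ear7 passed each time. Ear6 missed the threshold without KO CMP 4 (adjusted p = 0.146), Prg2 without WT CMP 3 (adjusted p = 0.0502), and Epx without KO CMP 4, WT CMP 2 or WT CMP 3 (adjusted p = 0.0684, 0.0511 and 0.0641). Ear1 missed it without any 1 of KO CMP 3 or 4, KO GMP 3 or 4, WT CMP 1, 2 or 4, and WT GMP 1 or 2. Without KO CMP 2, Ear3 was at -7.04, a size that rests on about 0.25 Ear3 fragments in KO CMP 1. In GMP the count ran between 0 and 3. It was 0 without KO GMP 3, KO GMP 4 or WT GMP 1, and 3 without KO CMP 1 or KO CMP 2.

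**Figure D3:**
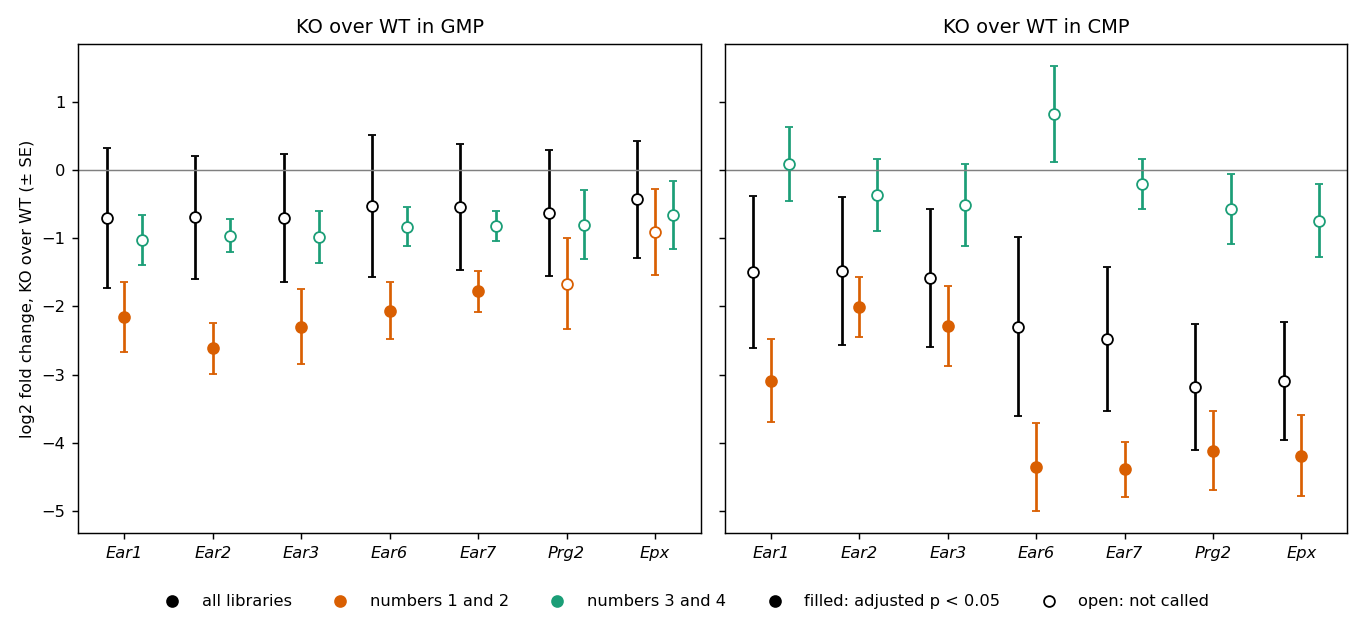
Log2 fold change of KO over WT with its standard error for each gene, in GMP (left) and CMP (right), from all libraries (black), numbers 1 and 2 (orange) and numbers 3 and 4 (green), with filled points for an adjusted p under 0.05. In CMP all 7 orange points are filled, in GMP the 5 ribonucleases are, and the green and black points are open.

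The number sets of WT parted in opposite directions in GMP and CMP. In WT GMP, numbers 1 and 2 were below 3 and 4 for all 7 members, by log2 values of -3.46 (Ear1) to -1.94 (Prg2). Prg2 averaged 1163 CPM in WT GMP 1 and 2 and 4472 CPM in WT GMP 3 and 4. In WT CMP, numbers 1 and 2 were above 3 and 4 for all 7, by 1.53 (Ear3) to 3.47 (Ear6), and Prg2 averaged 255.5 CPM in WT CMP 1 and 2 and 23.91 CPM in WT CMP 3 and 4. In KO CMP the sets were closer, with a median of -0.51 over the members, and Prg2 averaged 14.71 CPM in numbers 1 and 2 and 16.09 CPM in 3 and 4. In KO GMP, number 1 was below 3 and 4 by -4.62 (Ear2) to -2.22 (Epx). These differences between number sets are described with no test. Other genes of the granulocyte line moved with them in WT CMP, where numbers 1 and 2 against 3 and 4 had 3488 and 3878 against 1021 and 1183 CPM of Elane (neutrophil elastase) and 63.37 and 58.93 against 14.33 and 16.16 CPM of Cebpe, beside the Fcgr3 levels given above. Their part in the members' differences was not tested.

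The KO effect in GMP minus that in CMP was positive for all 7 members, between 0.79 ± 1.40 (Ear2) and 2.66 ± 1.18 (Epx), with a median of 1.77 against 0.02 over all genes. None passed edgeR's test (adjusted p = 1 for each), and 0% of all genes did. Epx was the 1 member with an unadjusted p under 0.05, against 2.12% of all genes that were higher, and DESeq2 called 0 members, against 0.0198% of all genes. A KO effect that differs between CMP and GMP was thus not shown for any member. The difference equals the GMP over CMP rise in KO minus that in WT. The Ear genes were chosen by their rise, so their signs and the median here are not free of that choice.

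Markers of other cells also moved in numbers 1 and 2, some in the direction of the members and some against it. In CMP, edgeR called 6 of 7 primary granule genes lower, 7 of 11 late neutrophil genes, 7 of 9 monocyte and macrophage genes, 5 of 9 basophil and mast cell genes, and called 5 of 5 stromal, 4 of 5 stem cell, 3 of 5 megakaryocyte and 3 of 7 erythroid genes higher. The summed primary granule level (Elane, Mpo and others) was 5293 and 5864 CPM in KO CMP 1 and 2 and 22950 and 25510 CPM in WT CMP 1 and 2. The summed late neutrophil level was 13.89 and 17.21 CPM in KO and 270.2 and 302.9 CPM in WT, and the summed stromal level 177.5 and 212.7 CPM in KO and 46.48 and 49.4 CPM in WT. Over all libraries the summed stromal level was 23.41 to 104.6 CPM in KO GMP, 13.65 to 24.82 in WT GMP, 56.86 to 212.7 in KO CMP and 46.48 to 65.8 in WT CMP. In GMP numbers 1 and 2, 7 of 7 primary granule, 7 of 11 late neutrophil and 4 of 9 monocyte and macrophage genes were called lower, and 6 of 9 basophil and mast cell, 5 of 5 stromal, 5 of 5 megakaryocyte, 5 of 5 stem cell and 4 of 7 erythroid genes and 1 late neutrophil gene were called higher. The summed late neutrophil level was 65.15 CPM in KO GMP 1, against 376.5 and 351.5 CPM in WT GMP 1 and 2. The part of these cells, and of the libraries with Xist, in the members' differences was not tested. In numbers 3 and 4, where Xist was at most 0.3047 CPM in every KO library, the summed stromal level was 56.86 to 59.98 CPM in KO CMP and 58.24 to 65.8 CPM in WT CMP.

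The wider eosinophil list shows which neighbours of the members shared their direction. It holds 17 genes, Prg2 and Epx among them, and all 17 were tested. With all libraries edgeR called 0 of 17 in GMP and 0 of 17 in CMP. In CMP numbers 1 and 2, 7 were called lower and 6 higher. Prg3 fell by 4.30 ± 0.46 (adjusted p = 3.65e-05), and Cebpe, a C/EBP factor of granulocyte maturation, fell by 3.05 ± 0.22 (adjusted p = 1.45e-06). Gata2 (1.02 ± 0.11, adjusted p = 2.82e-05) and Gata1 (1.21 ± 0.15, adjusted p = 9.95e-05), both transcription factors that eosinophils share with the mast cell, erythroid and megakaryocyte lineages, rose. In numbers 3 and 4 edgeR called 0 of 17 in either cell type. By point estimate, 14 were lower and 3 higher there in GMP, and 12 lower and 5 higher in CMP. Gata2 and Gata1 were then at -0.37 ± 0.11 and -0.24 ± 0.15 in GMP, and at 0.06 ± 0.10 and 0.27 ± 0.14 in CMP. In GMP numbers 1 and 2, 7 were called higher, among them Gata1, Gata2 and Il1rl1 (the interleukin-33 receptor), and 2 were called lower, Prg3 and Cebpe.

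Il5ra, the alpha chain of the interleukin-5 receptor, had a median of 4.401 CPM in KO GMP, 4.811 in WT GMP, 0.4566 in KO CMP and 1.264 in WT CMP, and it was not called in any of these KO comparisons. Ccr3, the eotaxin receptor of mature eosinophils, had a median of 1.497 CPM in KO GMP, 0.7101 in WT GMP, 0.244 in KO CMP and 0.1641 in WT CMP. In CMP numbers 1 and 2 Ccr3 rose by 3.85 ± 1.04 (edgeR adjusted p = 0.0227), opposite to the members, with 0.1631 and 1.775 CPM in KO and 0.04896 and 0.08331 CPM in WT. These are about 3 and 35.75 fragments in KO and 1 and 1.75 in WT, so this call rests on KO CMP 2. Siglecf, matched under the symbol Siglec5, had a median of 39.35 CPM in KO GMP, 36.9 in WT GMP, 17.87 in KO CMP and 18.7 in WT CMP. Rnh1, the cytosolic inhibitor that binds RNase A family enzymes, had medians of 146.5 CPM in KO GMP, 150.2 in WT GMP, 128.9 in KO CMP and 128.0 in WT CMP. Rnh1 was at -0.05 ± 0.13 (KO over WT) in GMP and -0.02 ± 0.12 in CMP, with adjusted p = 1 and 0.979 in edgeR's test. Of 10 RNase A family genes and their inhibitor outside the Ear group, 6 were tested, and edgeR called 0 with all libraries in either cell type. In CMP numbers 1 and 2, Rnase10 fell by 4.21 ± 0.46 (adjusted p = 4.16e-05) and Rnase12 by 1.76 ± 0.26 (adjusted p = 0.000513). In GMP numbers 1 and 2, Rnase6 rose by 1.29 ± 0.18 (adjusted p = 0.000408).

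Across the 15 libraries, P2rx3, which encodes an ATP-gated ion channel, had the pattern most like the mean of the 5 Ear genes. Members, unnamed clones and pseudogenes were left out of this ranking, and of that for the mean of Prg2 and Epx below. Among the rest of the 12021 genes with a mean of at least 1 CPM, P2rx3 had the highest Pearson r of log2(CPM + 1), 0.986. After group means were removed its r was 0.966. It measured 2.757, 7.275 and 7.647 CPM in KO GMP, 4.326, 4.612, 9.754 and 12.11 CPM in WT GMP, 0.6794 to 1.248 CPM in KO CMP and 1.299 to 2.345 CPM in WT CMP. Ptpn7 (a tyrosine phosphatase of blood cells, 0.982), Alox15 (the 12/15-lipoxygenase of eosinophils, 0.980), B4galt1 (a Golgi galactosyltransferase, 0.979) and Wdr1 (an actin turnover factor, 0.977) followed. Over all libraries Ptpn7 measured 269.3 to 369.3 CPM, B4galt1 85.7 to 196.3 CPM and Wdr1 178.7 to 285.2 CPM, ranges far narrower than those of the Ear genes. Alox15 measured 2.982, 15.38 and 14.99 CPM in KO GMP and 6.247, 7.625, 45.7 and 51.04 CPM in WT GMP. In CMP it measured 0.05435 to 0.7484 CPM in KO and 0.306, 0.7141, 0.4633 and 0.7343 CPM in WT, so WT CMP 1 and 2 did not stand above 3 and 4 as they did for the Ear genes.

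To the mean of Prg2 and Epx, Prg3 was most alike (r = 0.994, and 0.968 within groups). It measured 20.44, 123.2 and 120.6 CPM in KO GMP, 56.26, 55.34, 172.8 and 233.2 CPM in WT GMP, 0.1087 to 1.447 CPM in KO CMP and 9.915, 10.16, 1.137 and 1.604 CPM in WT CMP. Xbp1, a transcription factor of the unfolded protein response that eosinophil formation in mice is known to need, followed at 0.990. Xbp1 measured 181.9 to 240.2 CPM in KO GMP, 233.2 to 260.1 CPM in WT GMP, 95.3 to 114.6 CPM in KO CMP and 178.6, 180.4, 115.6 and 118.6 CPM in WT CMP, so its range was far narrower than that of the granule genes. Prss16 (a serine protease, 0.988), Ccno (cyclin O, 0.987) and Atp6ap2 (an accessory subunit of the vacuolar proton pump, 0.987) came next. Each Ear gene correlated at 0.994 to 0.999 with the Ear mean, of which it is itself a part, and reads may be shared between them. Prg2 and Epx are outside that mean and correlated with it at 0.945 and 0.946, so these values cannot be compared with those of the Ear genes. The points share the steps between cell types and between number sets, so these values describe likeness only.

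**Figure D4:**
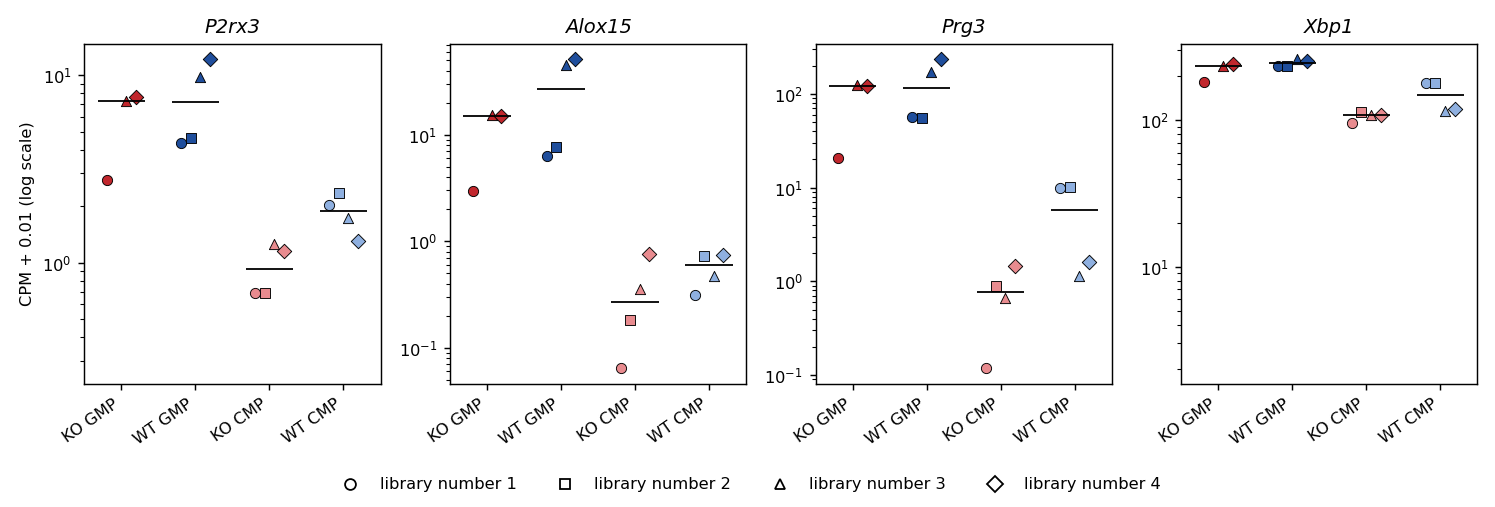
CPM + 0.01 on a log axis in each library for P2rx3, Alox15, Prg3 and Xbp1, with shapes for library numbers and lines for group medians. P2rx3 and Alox15 ranked 1 and 3 in likeness to the 5 Ear genes, and Ptpn7, which ranked 2, is not drawn. Prg3 and Xbp1 ranked 1 and 2 in likeness to Prg2 and Epx. Prg3 and Xbp1 are higher in WT CMP 1 and 2 than in WT CMP 3 and 4, and P2rx3 and Alox15 are higher in numbers 3 and 4 of GMP.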

How the data were processed

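The 15 libraries are of RNA from sorted progenitors of mouse bone marrow, with groups and numbers taken from the sample titles. The deposited values are estimated counts (expected counts) per gene symbol, as the authors made them, not scaled between libraries. Per the labels' protocols the libraries were made with a SMARTER mRNA-Seq kit, and HISAT and the mm10 build were used, per the submitters' processing notes. The sources used here do not give the counting tool, versions or annotation. Of 40915 values between 1 and 40, multiples of 4 made up 38% (an even spread gives 25%), and about 4 units were therefore taken as 1 fragment. Most of these values were not multiples of 4, so this is an assumption. All fragment counts and the intervals from them rest on it. Library totals were 61.28 M to 120.3 M units.

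Values were rounded, genes kept by filterByExpr (15181) and libraries scaled by TMM in R 4.3.3 with edgeR 4.0.16. CPM uses the same scaling. All libraries entered 1 quasi-likelihood fit with 4 groups (11 residual degrees of freedom). Number sets 1 and 2, and 3 and 4, came from a fit with the 8 combinations (7 residual degrees of freedom), a split chosen because earlier results showed WT libraries parting that way. P-values are two-sided, with Benjamini-Hochberg adjustment over all tested genes, and SEs come from the fit. DESeq2 1.42.0 was an alternative, beside other scaling (RLE), no filter on low counts, values divided by 4, a number-set covariate, a replicate block, a prior count of 2 in place of 0.125, only the libraries of 1 cell type, the 3 KO libraries with Xist left out, and each library left out. The fit was tested on simulated data. Same-numbered libraries deviated together from their group means (r of 0.1984 to 0.5364 in CMP and 0.2355 to 0.3965 in GMP). Differently numbered libraries were not compared in this way, so these r do not show pairing. That the numbers pair libraries is an assumption. Positions and transcripts are from GENCODE M21 and windows from RefSeq GRCm38.p6.

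The members and all gene lists were chosen with earlier results of these data known. Named are the 7 members, the other Ear genes, Trappc1, at most 3 genes a list by smallest p, and the 5 genes most like each of the Ear mean and the Prg2 and Epx mean, without unnamed clones. Xist, the gate gene Fcgr3, Il5ra, Ccr3, Siglecf, Rnh1 and further list members were added after their values were seen.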

Additional observations from a re-analysis of the deposited data

Results flagged for a closer look

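For 6 results the number sets differed in their KO effect, each by a test of the difference itself in edgeR's quasi-likelihood fit. In CMP the log2 effect of KO in numbers 1 and 2 minus that in numbers 3 and 4 was -3.19 for Ear1, -5.17 for Ear6, -4.19 for Ear7, -3.55 for Prg2 and -3.44 for Epx. DESeq2 called these but for Ear1 (adjusted p = 0.242). In GMP it was -1.65 for Ear2, where numbers 1 and 2 hold a single KO library. The KO libraries of numbers 1 and 2 are those with Xist at 109.5 to 203.8 CPM, and the WT CMP libraries of the same numbers had 10.69 times the Prg2 level of WT CMP 3 and 4. Trappc1 in KO was 14.63% to 30.17% of same-numbered WT in numbers 1 and 2, and 53.27% to 78.03% in numbers 3 and 4. The part of each in these differences was not tested.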

How the results depend on the processing

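Of 1323 recomputed values for the members, 1277 kept their direction and their side of the threshold, 24 lost a call, 12 gained one and 10 changed sign. In GMP with all libraries, leaving out single libraries moved the log2 fold change between -1.10 and 0.0433 for Ear1, -1.11 and 0.13 for Ear2, -0.98 and 0.29 for Ear6, -0.92 and 0.10 for Ear7, and -0.73 and 0.0115 for Epx. Without the 3 KO libraries with Xist together it was 0.0268 for Ear6 and 0.0140 for Epx. In CMP numbers 3 and 4 it moved between -0.36 and 0.91 for Ear1 and between -0.36 and 1.38 for Ear6.

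Calls by edgeR moved as follows. DESeq2 called 360 genes and 2 members in CMP with all libraries, 60 genes in GMP, 3 for the difference between cell types, 138 in CMP numbers 3 and 4, 43 in GMP numbers 3 and 4, and 3 members in GMP numbers 1 and 2. Without the 3 KO libraries, 1 gene was called in CMP and 1 for the difference between cell types. With the number set as a covariate 5 genes were called in GMP. With no filter on low counts 4 genes were called in CMP and 12 in GMP numbers 3 and 4, and with values divided by 4, 9 genes in GMP numbers 3 and 4 and 2 members for the GMP set difference (Ear7 gained, adjusted p = 0.0414), while Ear2 was lost in CMP numbers 1 and 2 (adjusted p = 0.0782). Leaving out single libraries gave 0 to 50 genes in CMP, 0 to 1 for the difference between cell types, 0 to 46 in CMP numbers 3 and 4, 1968 to 3445 in GMP numbers 1 and 2, 1 to 28 in GMP numbers 3 and 4, 743 to 1432 genes and 2 to 6 members for the CMP set difference, and 1015 to 1989 genes and 0 to 3 members for the GMP set difference. The cause was not tested.

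The replicate block changed no call of a member. With it the log2 fold change was -3.53 for Prg2 and -3.48 for Epx in CMP (adjusted p = 0.142 and 0.126), and 0 members were called in CMP, in GMP or for the difference between cell types. Leaving out KO GMP 1 gives no value for GMP numbers 1 and 2, and the fit of 1 cell type was not run for the difference between cell types. In CMP, depth limits Ear2 and Ear6 in numbers 3 and 4, where KO held 8 and 10 fragments and WT 10 and 6. It also limits Ear1, Ear3, Ear6 and Ear7 in KO CMP 1, at about 0.75 fragments or fewer each.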
